A study of Homo sapiens with 4 samples.

Results

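The 33 genes described here encode proteins of fatty acid oxidation and ketone body handling, together with some of their regulators. They were chosen by name, and each one was found in the platform's probe table under its own symbol. All 33 had a value after the filter on dim probe sets, among 19140 genes with a value in the series. Each gene value is the mean of the kept probe sets of the gene, on the log2 scale of the deposited RMA values. The members kept 456 of 520 probe sets, with a median of 13 per gene, from 3 in ACAD11 to 25 in ACAD9.

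The comparison was between Huh7 cells given an siRNA against NF90 (siNF90, 2 samples) and Huh7 cells given the control siRNA that the labels name siNTC (2 samples). Huh7 is a human hepatocellular carcinoma line that keeps many hepatocyte genes active, and NF90 is a double-stranded RNA-binding protein. All samples are of this 1 cell line, total RNA of each was hybridised to 1 array, and no dose, duration or siRNA sequence is stated in the labels. The labels do not say that replicates were separate cultures, so the p-values cover array-to-array spread that may be purely technical.

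Fatty acids are first joined to coenzyme A and then pass into mitochondria as carnitine esters. There each turn of the β-oxidation spiral uses an acyl-CoA dehydrogenase, a hydratase, a hydroxyacyl-CoA dehydrogenase and a thiolase, and the electrons of the dehydrogenase step reach ubiquinone through the electron transfer flavoprotein (ETF). Peroxisomes run a parallel spiral for very long and branched chains. In liver the acetyl-CoA formed feeds ketone body synthesis in fasting, and the nuclear receptor PPARA with its coactivator PGC-1α (PPARGC1A) raises transcription of many of these genes.

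Across genes, the pairs of arrays that include siNF90 replicate 2 correlated at 0.936 to 0.950, and the remaining pairs at 0.951 to 0.958. This array was therefore the one most apart. The arrays did not pair by treatment, since siNF90 replicate 1 correlated more with the siNTC arrays (0.958 and 0.951) than with siNF90 replicate 2 (0.950). The median of all probe sets was 2.72 to 2.79 on the siNF90 arrays and 2.75 to 2.79 on the siNTC arrays. Of 9 hepatocyte and hepatoma markers 8 had a value. Their mean, with the lower array first whatever its replicate number, was 9.25 and 9.31 on the siNF90 arrays, against 9.35 and 9.47 on the siNTC arrays. The marker means of other cell types are also given with the lower array first. They were 2.74 and 3.65 in siNF90 against 2.59 and 2.79 in siNTC cells for 3 of 4 leukocyte genes. For 2 of 3 endothelial genes they were 3.09 and 3.27 against 2.83 and 2.99. For 4 of 4 fibroblast and stellate genes they were 3.05 and 3.86 against 3.02 and 3.16. The part of these shifts in the results below was not tested. All samples are of 1 cell line, so these markers do not measure a share of other cell types. Single dim genes weigh on their means. CD3E had 3.98 and 2.11 in siNF90 cells, against 2.36 and 1.43 in siNTC cells, by replicate number. LRAT had 1.40 and 3.83 in siNF90 cells, against 2.42 and 1.63 in siNTC cells. NF90's own gene is not analysed here, so the depletion was taken from the labels.

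No member passed limma's test at an adjusted p of 0.05, and neither did any other gene, the share called over all genes being 0%. Adjusted p-values of the members ran from 0.514 for ACAD11 to 0.984 for HADHA. With limma's trend and robust prior 0 members passed either, against 0.251% of all genes, and the smallest adjusted p of a member was 0.153. At an unadjusted p under 0.05 in the default fit there were 0 members higher in siNF90, where the share over all genes was 3.51%, and 1 lower, ACAD11, where that share was 5.29%.

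The differences were mostly small. In 25 of the 33 members the groups differed by no more than 1.2-fold, which is 75.8% against 57.2% of all genes. Another 2 members, ACAD11 and ETFDH, differed by at least 1.5-fold, which is 6.06% against 12.3% of all genes. Every member kept at least 3 probe sets, and over all genes with at least 3 these shares were 61.2% and 8.87%. That set was not matched to the members in number of probe sets or in value. Its mean was 4.75 and 4.66 on the siNF90 arrays and 4.75 and 4.72 on the siNTC arrays, lower than that of the members given below. The signs were uneven, with 21 members lower and 12 higher in siNF90, that is 63.6% negative against 52.5% over all genes. The mean value over the members was 6.11 and 6.05 on the siNF90 arrays and 6.19 and 6.17 on the siNTC arrays. Both siNF90 means therefore lay below both siNTC means, with a mean difference of -0.11 and a median of -0.067, beside a mean of -0.023 and a median of -0.018 over all genes. Without the second siNF90 array the mean difference was -0.078, and without the first it was -0.14.

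The siNF90 values were both under the lower siNTC value in 10 members (30.3%), which were ACAD11, ETFDH, ACADVL, CPT2, ACAA2, HSD17B4, ECI1, ACAD9, ETFB and PPARA. Over all genes this share was 22.0%. In 5 members (15.2%), ACSL5, ACADSB, ACADS, ECI2 and ACSL3, they were both over the higher siNTC value, where the share over all genes was 19.2%. In the remaining members the groups overlapped.

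**Figure D1:**
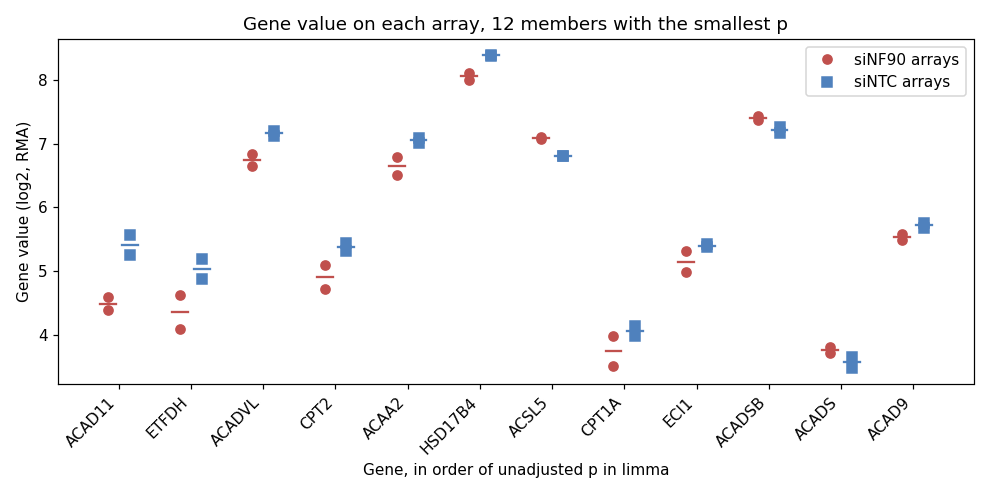
Gene values on the log2 scale (vertical axis) of the 12 members with the smallest unadjusted p, with a circle for each siNF90 array, a square for each siNTC array and a line at each group mean (n = 2). Of these genes, CPT1A has groups that overlap, 8 others are lower on both siNF90 arrays, and ACSL5, ACADSB and ACADS are higher on both.

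Acyl-CoA activation was the only role group with a positive mean difference, 0.055. ACSL5, a long-chain acyl-CoA synthetase found in liver and intestine, had 7.10 and 7.07 on the siNF90 arrays, against 6.80 and 6.81 on the siNTC arrays. The replicates of each group were close together and the groups did not overlap, and the difference of 0.28 (SE 0.17), or 1.21-fold, had an adjusted p of 0.682. With the filter at the 60th percentile it was 0.15. Of the 22 ACSL5 probe sets 14 were higher and 8 lower, and the median of their differences was 0.060. One of them, kept through the siNF90 arrays alone, was at 2.41, where the mean of the other 21 was 0.18. ACSL3, the synthetase of the endoplasmic reticulum and lipid droplets and the member with the highest array value (which does not rank abundance between genes), had 9.44 and 9.51 in siNF90 cells, against 9.34 and 9.40 in siNTC cells. Its difference was 0.11 (SE 0.17, adjusted p = 0.883). ACSL4, which prefers arachidonic acid, had a difference of -0.021 (SE 0.17) and ACSL1, a major hepatic isoform and PPARA target, -0.14 (SE 0.19), both with overlapping groups. The mean of the 4 genes was 7.82 and 7.91 on the siNF90 arrays and 7.79 and 7.83 on the siNTC arrays.

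The promoter of ACSL5 is shown because it was the 1 member window that held the letters AGGTCA, the core element that PPARA with its RXR partner, and other nuclear receptors, bind as a repeat. The sequence is RefSeq's (GRCh38.p14, chr10:112375018-112375267, plus strand), the 250 bases before the annotated start, with the match in capitals.
ACSL5: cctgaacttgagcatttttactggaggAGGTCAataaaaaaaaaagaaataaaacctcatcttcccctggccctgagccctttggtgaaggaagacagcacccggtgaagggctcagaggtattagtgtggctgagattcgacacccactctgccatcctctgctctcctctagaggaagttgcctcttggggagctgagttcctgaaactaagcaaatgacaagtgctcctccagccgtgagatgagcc
The RefSeq table held windows for 27 of the 33 members, 39 in all because several genes have more than 1 start. ACAD11, ETFDH, ACOX2, EHHADH, ACAA1 and DECR1 had none. Searched on both strands, AGGTCA was in 1 of the 39 windows (2.56%) and in 12.1% of all 35116 windows of this length. The GC box GGGCGG was in 27 of them (69.2%) against 42.6% of all windows, and CCAAT in 7 (17.9%) against 32.0%. None of the 3 motifs contains another. A match describes these letters only, and whether any factor binds there was not measured.

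The carnitine shuttle genes had negative differences in 3 of 4 cases. CPT2, the inner-membrane transferase that turns acylcarnitines back into acyl-CoA, had 5.10 and 4.72 on the siNF90 arrays, against 5.44 and 5.32 on the siNTC arrays. The groups did not overlap, all 7 probe sets of CPT2 were lower in siNF90, and the difference of -0.47 (SE 0.21) had an adjusted p of 0.612. Without the second siNF90 array the CPT2 difference was -0.28. CPT1A, the outer-membrane transferase that malonyl-CoA inhibits and that sets the pace of entry, had 3.51 and 3.98 in siNF90 cells, against 4.14 and 3.98 in siNTC cells. The second siNF90 array lay at the level of the lower siNTC array, and 7 of 15 CPT1A probe sets were higher, and the difference was -0.31 (SE 0.23, adjusted p = 0.735). Without the first siNF90 array the CPT1A difference was -0.075. One probe set, kept through the siNTC arrays alone, was at -3.03, where the mean of the other 14 was -0.12. With dim probe sets left out up to the 60th percentile the gene difference was 0.24. The carrier SLC25A20, which exchanges acylcarnitine for carnitine, had -0.12 (SE 0.21), and CROT, the peroxisomal carnitine octanoyltransferase, 0.076 (SE 0.19). Both siNF90 means of the 4 genes, 4.44 and 4.46, lay below the siNTC means of 4.72 and 4.60.

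Among the acyl-CoA dehydrogenases ACAD11 had the lowest p of the 33 members. ACAD11 acts on long saturated and hydroxylated chains, and its value was 4.59 and 4.39 in siNF90 cells, against 5.25 and 5.56 in siNTC cells. With 4.49 ± 0.14 against 5.41 ± 0.22 (SD, n = 2 each) it was 1.89-fold lower, the difference being -0.92 (SE 0.21; 95% interval -1.46 to -0.38). Its adjusted p over all genes was 0.514 in limma and 0.153 with the trend and robust prior, so that it was not called. The estimate rests on 3 probe sets, which differed by -1.73, -0.86 and -0.17. The brightest of these read 7.97 and 7.86 in siNF90 cells, against 7.84 and 8.33 in siNTC cells, and its groups overlapped, whereas the one with the largest difference read 3.16 and 3.32 against 4.51 and 5.43. With the median of probe sets in place of the mean the ACAD11 difference was -1.73.

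ACADVL, the very long-chain dehydrogenase that opens the mitochondrial spiral, had 6.84 and 6.65 on the siNF90 arrays, against 7.13 and 7.20 on the siNTC arrays. It was 1.34-fold lower with no overlap (difference -0.42, SE 0.18, adjusted p = 0.605), and 19 of its 20 probe sets were lower. Part of this size came from 1 probe set at -2.61, kept through the siNTC arrays alone. The mean of the other 19 was -0.30. ACAD9, a close relative of ACADVL that also serves in the assembly of respiratory complex I, had 5.49 and 5.58 in siNF90 cells, against 5.76 and 5.68 in siNTC cells. Its difference was -0.18 (SE 0.17, adjusted p = 0.785), with 17 of 25 probe sets lower, and it was -0.55 with the median of probe sets.

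The enzymes of shorter chains did not share this sign. ACADM, the medium-chain dehydrogenase, had 8.02 and 7.79 in siNF90 cells, against 7.99 and 7.77 in siNTC cells, so each group spanned nearly the same range (difference 0.027, SE 0.20, 95% interval -0.49 to 0.55). ACADSB, which acts on short branched chains from isoleucine, had 7.44 and 7.38 in siNF90 cells, against 7.26 and 7.17 in siNTC cells. Its groups did not overlap, with a difference of 0.19 (SE 0.17, adjusted p = 0.779) and 10 of 12 probe sets higher, and with the median of probe sets it was 0.051. ACADS, the short-chain dehydrogenase, had 3.71 and 3.81 in siNF90 cells, against 3.48 and 3.66 in siNTC cells. The ACADS difference was 0.19 (SE 0.18, adjusted p = 0.785), but 6 of its 11 probe sets were higher and 5 lower. One of them, kept through the siNF90 arrays alone, was at 2.26, where the mean of the other 10 was -0.014. With the median of probe sets the ACADS difference was -0.084.

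**Figure D2:**
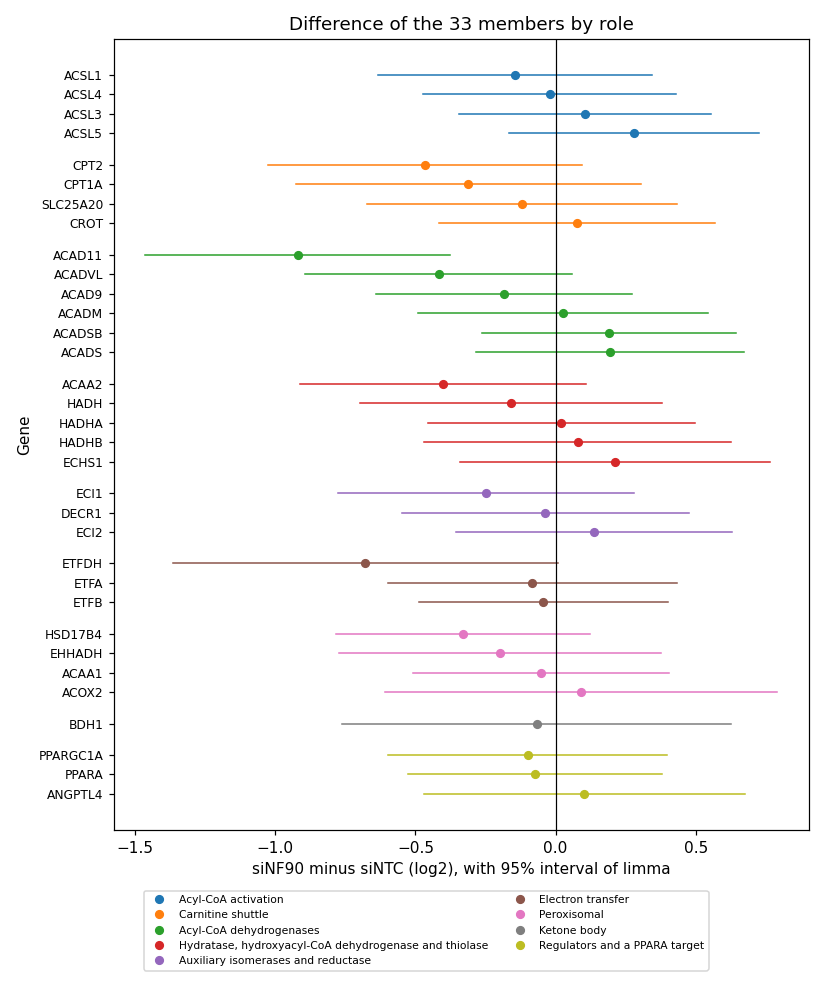
Difference of each member, siNF90 minus siNTC on the log2 scale (horizontal axis), with its 95% interval from limma, grouped and coloured by role. The interval of ACAD11, from -1.46 to -0.38, excludes 0, and those of the other 32 members include it.

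The later steps of the mitochondrial spiral were close to level except for ACAA2. This mitochondrial 3-ketoacyl-CoA thiolase had 6.79 and 6.51 on the siNF90 arrays, against 7.01 and 7.10 on the siNTC arrays. The ACAA2 groups did not overlap, 9 of 10 probe sets were lower, and the difference of -0.40 (SE 0.20), or 1.32-fold lower, had an adjusted p of 0.623 and was -0.26 without the second siNF90 array. HADHA and HADHB, the α and β subunits of the trifunctional protein that handles long chains, had differences of 0.021 (SE 0.18) and 0.078 (SE 0.21). HADHA had 8.79 and 8.98 in siNF90 cells, against 8.83 and 8.90 in siNTC cells, and HADHB had 6.65 and 6.97 against 6.82 and 6.64. In both genes the groups overlapped, and the 95% intervals, -0.45 to 0.50 for HADHA and -0.47 to 0.62 for HADHB, leave room for changes of either sign. The short-chain hydratase ECHS1 had 0.21 (SE 0.21), with all 8 probe sets higher but overlapping groups, and the short-chain hydroxyacyl-CoA dehydrogenase HADH had -0.16 (SE 0.21).

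HADHA and HADHB are transcribed away from each other, with annotated starts 307 bases apart, so 1 stretch of DNA lies upstream of both. It is shown because these genes form 1 complex and neither differed by more than its SE. The run below is the 250 bases before the HADHA start in RefSeq (GRCh38.p14, chr2:26244633-26244882, minus strand), with the GC box GGGCGG in capitals.
HADHA: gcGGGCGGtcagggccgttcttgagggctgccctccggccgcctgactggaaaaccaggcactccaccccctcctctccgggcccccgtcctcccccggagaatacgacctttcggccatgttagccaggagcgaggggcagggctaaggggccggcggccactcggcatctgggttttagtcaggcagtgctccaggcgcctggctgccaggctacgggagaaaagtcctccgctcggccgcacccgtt
Another 3 pairs of a member and a neighbour on the opposite strand within 1000 bases could be read on the array. DLG4, whose start lies 102 bases from one of ACADVL, had a difference of -0.32 (SE 0.30) beside -0.42 for ACADVL. IKZF5 beside ACADSB had -0.022 (SE 0.17), and the noncoding TP53TG1 beside CROT had -0.44 (SE 0.20). None of the 3 neighbours passed the test (adjusted p between 0.612 and 0.983).

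The auxiliary enzymes let unsaturated chains enter the spiral. ECI1, a mitochondrial enoyl-CoA isomerase, had 5.32 and 4.99 in siNF90 cells, against 5.42 and 5.38 in siNTC cells. Its lower value came mostly from the second siNF90 array (difference -0.25, SE 0.20, adjusted p = 0.749), and it was -0.084 without that array and -0.12 with the median of probe sets. ECI2, an isomerase of mitochondria and peroxisomes, had 0.14 (SE 0.19), and the dienoyl-CoA reductase DECR1 had -0.037 (SE 0.20).

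Of the genes for electron transfer, ETFDH stood apart from the ETF subunits. ETFDH, the oxidoreductase that passes electrons from ETF to ubiquinone, had 4.62 and 4.09 on the siNF90 arrays, against 4.88 and 5.18 on the siNTC arrays. It averaged 4.35 ± 0.38 in siNF90 cells and 5.03 ± 0.21 in siNTC cells (SD, n = 2 each), 1.60-fold lower with no overlap. The difference of -0.68 (SE 0.26) had a 95% interval of -1.37 to 0.0077 (adjusted p = 0.567), and 13 of 15 probe sets were lower. It was -0.41 without the second siNF90 array and -0.95 without the first. ETFA and ETFB, the subunits of ETF itself, had -0.083 (SE 0.20) and -0.044 (SE 0.17). The ETFB values, 7.04 and 7.01 in siNF90 cells against 7.08 and 7.06 in siNTC cells, did not overlap but differed by only 1.03-fold.

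**Figure D3:**
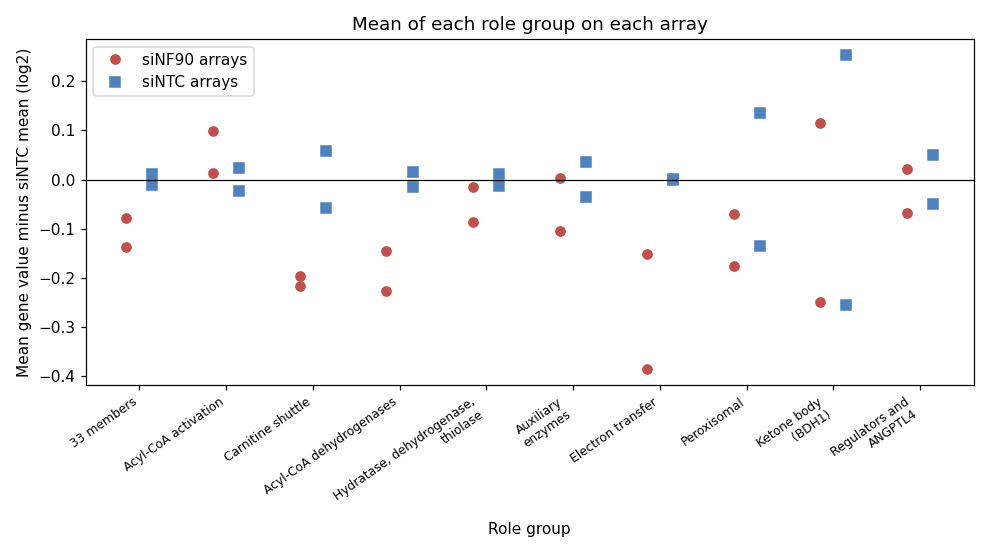
Mean gene value of all 33 members and of each role group on each array, less the mean of the siNTC arrays (log2, vertical axis), with circles for siNF90 and squares for siNTC. The siNF90 points are all under the siNTC points for the 33 members and in the carnitine shuttle, acyl-CoA dehydrogenase, hydratase to thiolase and electron transfer groups, and the groups overlap in the rest.

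The peroxisomal enzymes had 1 member with groups apart. HSD17B4, the D-bifunctional protein that hydrates and dehydrogenates very long and branched chains, had 8.11 and 8.01 in siNF90 cells, against 8.38 and 8.40 in siNTC cells. It was 1.26-fold lower (difference -0.33, SE 0.17, adjusted p = 0.643), with 17 of 19 probe sets lower. EHHADH, the L-bifunctional enzyme and a PPARA target, had -0.20 (SE 0.22), the thiolase ACAA1 -0.053 (SE 0.17), and ACOX2, the oxidase of branched chains and bile acid intermediates, 0.090 (SE 0.27). Their groups overlapped.

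Ketone body handling was represented by BDH1, which interconverts acetoacetate and 3-hydroxybutyrate. BDH1 was the member with the lowest value, at 3.17 and 2.81 in siNF90 cells, against 2.80 and 3.31 in siNTC cells. Both siNF90 values lay between the siNTC values, the difference was -0.067 (SE 0.27, 95% interval -0.76 to 0.63), and only 6 of its 16 probe sets were bright enough to be kept.

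PPARA had 5.62 and 5.52 in siNF90 cells, against 5.65 and 5.64 in siNTC cells, which differ by -0.074 (SE 0.17; 95% interval -0.53 to 0.38). The PPARA difference depended on the summary, at -0.38 with the filter at the 60th percentile and -0.28 with the median of probe sets. PPARGC1A had -0.10 (SE 0.19). ANGPTL4, a PPARA target that inhibits lipoprotein lipase, had 0.10 (SE 0.22).

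Of the 456 kept probe sets of the members, 269 were lower and 187 higher in siNF90. No single probe set passed limma over the 171120 tested (0% called), and at an unadjusted p under 0.05 there were 25 (5.48%), 16 lower and 9 higher, against 7.38% of all kept probe sets. Whether the probe sets of a gene moved unequally was tested with limma's diffSplice, which called 5 members at a false discovery rate (FDR) of 0.05, against 2.76% of all genes tested. Among genes with at least 10 kept probe sets this share was 5.12%, and 5 of 26 such members (19.2%) were called. They were ACADVL (FDR = 0.00028), ACSL1 (0.0050), ACSL5 (0.017), ACSL4 (0.031) and EHHADH (0.037).

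In ACADVL 1 probe set had a difference of -2.61, where the other 19 lay between -0.87 and 0.035. It read 1.94 and 0.59 in siNF90 cells, against 3.71 and 4.03 in siNTC cells, and both siNF90 readings were under the array medians. In EHHADH 1 probe set read 1.21 and 1.23 in siNF90 cells, against 3.35 and 2.89 in siNTC cells, a difference of -1.90 where the mean of the other 10 was -0.028. In ACSL5 1 read 3.23 and 3.98 in siNF90 cells, against 1.31 and 1.07 in siNTC cells, a difference of 2.41 where the mean of the other 21 was 0.18. In ACADVL, EHHADH and ACSL5 both readings of the dimmer group were below the filter of 2.13, so these probe sets were kept through the brighter group alone, and their differences are given as a description. In ACSL1 the farthest probe set read 1.82 and 6.90 in siNF90 cells, against 0.56 and 1.25 in siNTC cells. Its difference of 3.45 came from the second siNF90 array, the only one on which it was above the filter. The ACSL1 probe sets at -1.88 and -1.84 were kept through the siNTC arrays alone. In ACSL4 the farthest probe set, at 1.13, read 4.53 and 5.51 in siNF90 cells, against 3.85 and 3.92 in siNTC cells. Another ACSL4 probe set went the other way, at -1.18, with 5.14 and 4.64 in siNF90 cells, against 5.96 and 6.18 in siNTC cells. Of the 22 ACSL4 probe sets 7 were higher and 15 lower. With no dim filter EHHADH was not called and the other 4 were. Without the second siNF90 array 0 members were called, and under the stricter dim filter (60th percentile) 1 was, ACSL4.

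**Figure D4:**
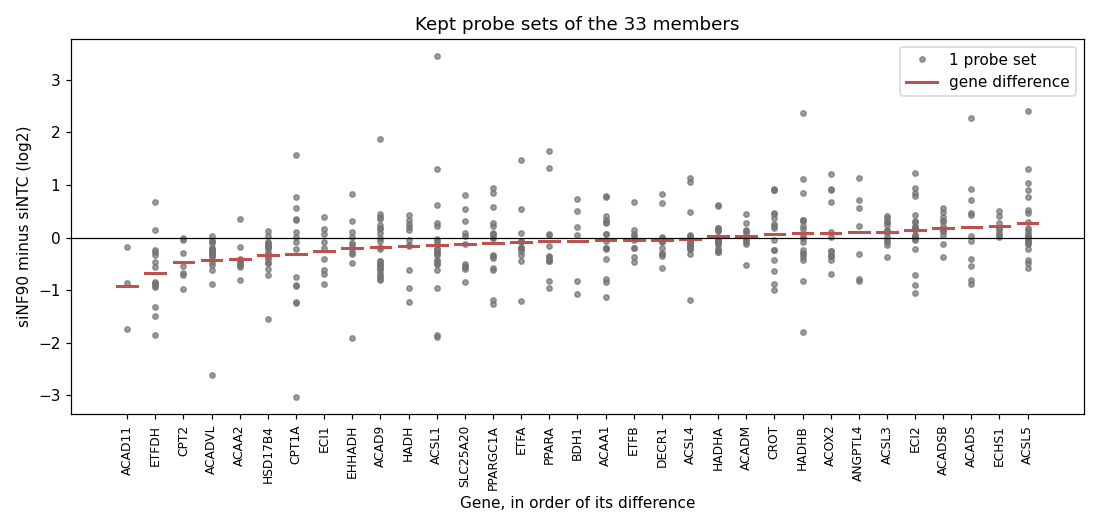
Differences of single kept probe sets (points) and of the gene (red line), siNF90 minus siNTC on the log2 scale, for the 33 members in order of the gene difference. All points of CPT2 and ACAD11 lie below 0 and all of ECHS1 above it, while ACADVL, CPT1A, ACSL1, ACSL5 and EHHADH each have a probe set far from the others.

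Genes of the same pathway that are not members were read in 9 lists, of which 94 genes had a value. None passed limma's test in either prior. Over the 94 the median difference was -0.040, with 53 negative and 41 positive. The groups did not overlap in 53 of them, with siNF90 lower in 26 (27.7%, against 22.0% of all genes) and higher in 27 (28.7%, against 19.2%). At an unadjusted p under 0.05, 10 of the 94 were lower and 5 higher, where the shares over all genes were 5.29% and 3.51%.

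The larger negative differences were spread over several lists, those next to the carnitine shuttle among them. Of 6 genes for carnitine synthesis, uptake and the other CPT1 isoforms, ALDH9A1, an aldehyde dehydrogenase of carnitine synthesis, had 5.06 and 4.91 in siNF90 cells, against 5.74 and 6.02 in siNTC cells. All 12 of its probe sets were lower (difference -0.90, SE 0.20, adjusted p = 0.514). CPT1C, the brain isoform, had -0.79 (SE 0.24), at low mean values of 2.86 in siNF90 and 3.66 in siNTC cells. The muscle isoform CPT1B had 1.45 (SE 0.52) from a single probe set, or 0.69 without the first siNTC array. Of 10 genes that set malonyl-CoA or form the energy sensor AMPK, 7 were negative. PRKAA2, a catalytic AMPK subunit, had 6.31 and 6.18 in siNF90 cells, against 6.66 and 6.81 in siNTC cells, with all 9 probe sets lower (difference -0.49, SE 0.18, adjusted p = 0.559). PRKAB2, a regulatory AMPK subunit, had -0.51 (SE 0.20), with all 10 lower. MLYCD, which degrades malonyl-CoA, had -0.69 (SE 0.23), at low mean values of 2.75 in siNF90 and 3.44 in siNTC cells.

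Other PPARA targets did not share 1 sign, with 7 of 10 negative. PLIN2, which coats lipid droplets, had 6.26 and 6.23 in siNF90 cells, against 6.88 and 7.06 in siNTC cells. It was 1.65-fold lower, with 15 of 16 probe sets lower (difference -0.72, SE 0.18, adjusted p = 0.514). PDK4, a kinase that restrains pyruvate oxidation, had 0.83 (SE 0.30), at low mean values of 3.30 in siNF90 and 2.47 in siNTC cells. HILPDA, an inhibitor of droplet lipolysis, had -0.43 (SE 0.24). In the list of thioesterases, binding proteins and transporters, FABP1, the fatty acid-binding protein of hepatocytes, had 7.69 and 7.34 in siNF90 cells, against 8.03 and 8.07 in siNTC cells, with all 8 probe sets lower (difference -0.54, SE 0.20, adjusted p = 0.563). The thioesterase ACOT11 had 1.01 (SE 0.21), with mean values of 3.95 in siNF90 and 2.94 in siNTC cells. The fatty acid transporter SLC27A4 had 0.37 (SE 0.17).

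Of 12 peroxisomal genes measured, AMACR, the racemase of branched-chain acyl-CoA, had -0.79 (SE 0.19) and PHYH, which starts the breakdown of phytanic acid, -0.61 (SE 0.19; 0.15 with the median of probe sets), whereas ABCD3, a transporter of the peroxisomal membrane, had 0.36 (SE 0.18). Among 9 further dehydrogenases and related enzymes, ACADL, the long-chain dehydrogenase, had 0.94 (SE 0.21) at a low value of 2.97 and 2.98 in siNF90 cells, against 2.23 and 1.83 in siNTC cells. DMGDH, which feeds ETF from dimethylglycine, had -0.92 (SE 0.28), also at low mean values, 2.74 in siNF90 and 3.67 in siNTC cells. ACAD10 had -0.41 (SE 0.18). Of 8 other ketone body genes 6 had a value. OXCT1, which activates acetoacetate for use as fuel, had 5.77 and 5.77 in siNF90 cells, against 5.46 and 5.09 in siNTC cells (difference 0.50, SE 0.21, adjusted p = 0.591). HMGCLL1 had -0.54 (SE 0.21), at low mean values of 2.59 in siNF90 and 3.13 in siNTC cells. ACAT1, whose thiolase step makes acetoacetyl-CoA, had 0.39 with overlapping groups.

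The PPARA partners and mitochondrial regulators had a median of 0.0024 over 15 genes. PPARGC1B, a relative of PPARGC1A, had -0.76 (SE 0.20), at low mean values of 2.93 in siNF90 and 3.69 in siNTC cells. The mitochondrial transcription factor TFAM had 0.53 (SE 0.19) and the phosphatidate phosphatase LPIN1 -0.59 (SE 0.26). The citric acid cycle, which takes up the acetyl-CoA of β-oxidation, had a median of 0.064 over 14 genes, beside -0.067 for the members. The groups did not overlap in 6 of the 14, with siNF90 higher in 5 (35.7%, against 19.2% of all genes) and lower in 1 (7.14%, against 22.0%). SUCLA2, a subunit of succinyl-CoA synthetase, had 0.30 (SE 0.17, adjusted p = 0.665), IDH3B, a subunit of isocitrate dehydrogenase, 0.30 (SE 0.18) and DLST, of the oxoglutarate dehydrogenase complex, 0.25 (SE 0.17). The difference between these lists was not tested.

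Several of these pathway values moved by over 1.5 times with the processing. With the median of probe sets the difference was -0.23 in AMACR, -0.090 in ACAD10, -0.32 in PPARGC1B, -0.41 in MLYCD, -0.58 in DMGDH, 0.56 in ACOT11, 0.57 in SLC27A4, 0.94 in OXCT1, 0.78 in ACAT1, 0.74 in IDH3B and 0.13 in DLST. With no dim filter it was 0.24 in ACADL, 0.35 in PDK4, -0.56 in ALDH9A1, -0.44 in CPT1C and -0.15 in HMGCLL1. With the filter at the 60th percentile it was 0.34 in TFAM, -1.59 in MLYCD and -2.19 in HMGCLL1. Without the first siNF90 array HILPDA had -0.20, and without the second LPIN1 had -0.30. Without the second siNTC array the difference was 0.48 in PDK4, -0.59 in DMGDH, 0.32 in OXCT1 and -0.045 in ACAT1. PRKAA2, PRKAB2, PLIN2, FABP1, ABCD3 and SUCLA2 stayed within 1.5 times under all 13 alternatives, of which the prior and the replicate block cannot change a difference.

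**Figure D5:**
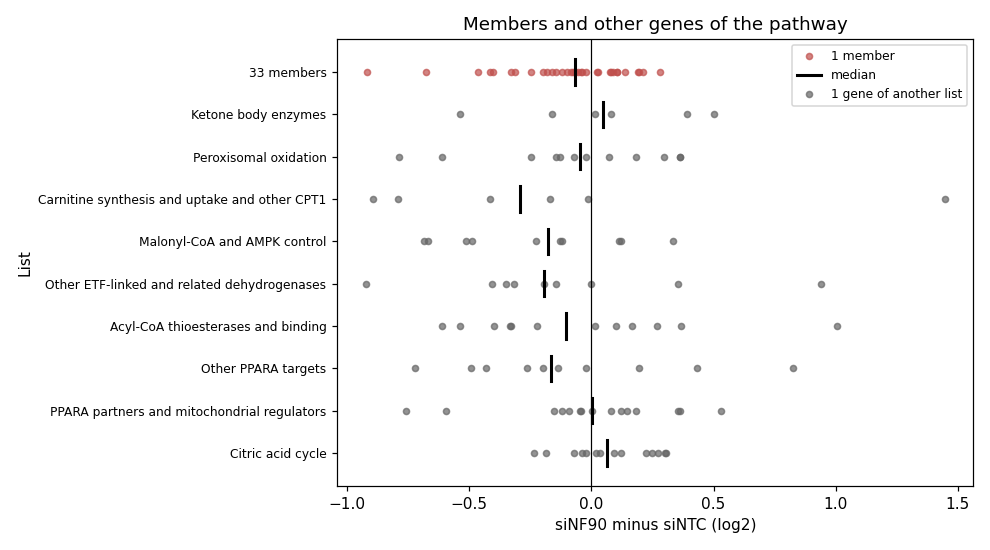
Differences of the 33 members (red) and of the genes of 9 other lists of the pathway (grey), siNF90 minus siNTC on the log2 scale (horizontal axis), with a bar at each median. The medians run from -0.29 for carnitine synthesis and uptake to 0.064 for the citric acid cycle, and that of the members is -0.067.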

How the data were processed

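Total RNA of 4 samples of Huh7 cells was measured on 1 Affymetrix array each. The deposited log2 values were made by the authors with RMA (the sketch variant) in Affymetrix Expression Console, per the labels, a method that corrects background, quantile-normalizes and summarises each probe set. The base 2 was taken from the method and the range. Neither program version nor genome build is given in the sources used here. Of 352859 probe sets, 257971 had 1 symbol in the platform's table, which can be old, and only these were used. Those with a mean at or above the 40th percentile of all (2.13) were kept, and a gene value is the mean of its kept probe sets. The groups were compared as siNF90 minus siNTC with limma 3.58.1 in R 4.3.3 (lmFit, eBayes, two-sided, Benjamini-Hochberg over all 19140 genes, threshold 0.05), and unequal probe sets with diffSplice (Simes), which treats the probe sets of a gene as independent. The fit was tested on simulated data. The precision is limited by 2 arrays per group.

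The members and lists were chosen with earlier results of these data known. Values on every array are given for the 12 members with the smallest p and for those with the highest and lowest value. For each other list up to 3 genes with the smallest p are named. Array values of HADHA, HADHB, ACADM, ETFB and PPARA, and the neighbouring genes were added after their values were seen. The alternatives were dropping the dim filter, raising it to the 60th percentile, taking the median of probe sets, at least 50% of probe sets above the filter, identical probe sets counted once, quantile normalization again, centring on the median, limma's trend and robust prior, blocking on replicate number, and each array left out, where a lone array is assumed to vary like the other group.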

Additional observations from a re-analysis of the deposited data

How the results depend on the processing

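Under all 13 alternatives 0 of the members passed, and so did 0 of the other pathway genes, of which 94 had a value in 11 alternatives, 87 at the 60th percentile and 88 with at least 50% of probe sets above the filter. The sign of the difference held in 17 members under all 13, negative in 12 and positive in 5. Not all of these could turn a sign. The trend and robust prior, the replicate block and identical probe sets counted once could not change a member's difference. The rule of at least 50% of probe sets above the filter could only drop a gene, and centring shifted all genes alike. The number lower at an unadjusted p under 0.05 was 1 and became 3 without the filter or with at least 50% of probe sets above it, 2 with the 60th percentile, quantile normalization or centring, 6 with the trend and robust prior (which also gave 1 higher, where the shares over all genes in that fit were 5.72% lower and 5.01% higher), and 1 to 2 when an array was left out. In the other fits the share of all genes that were lower ran from 3.08% without the second siNF90 array to 6.49% with at least 50% of probe sets above the filter. With the replicate number as a block it stayed 1 and 0 members passed; same-numbered arrays did not deviate together (correlation of deviations -0.0118). The mean difference of the members was -0.20 with the median of probe sets. Without the filter the mean became -0.0092 for the hydratase to thiolase group and 0.097 for the regulators. At the 60th percentile it became -0.065 for the carnitine shuttle, -0.24 for the acyl-CoA dehydrogenases, 0.36 for BDH1 and -0.22 for the regulators. With the median of probe sets it became -0.43 for the acyl-CoA dehydrogenases, -0.13 for the hydratase to thiolase group and -0.17 for the regulators. BDH1 had no value with at least 50% of probe sets above the filter. Unequal probe sets, with alternatives chosen after seeing the data, were called in 1 member at the 60th percentile and in 0 to 7 when an array was left out.

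The sign turned in the following members. Without the filter the difference was 0.11 in DECR1, 0.025 in ACAA1 and 0.13 in PPARGC1A. At the 60th percentile it was 0.24 in CPT1A, -0.054 in ACADS, -0.015 in HADHA, -0.056 in HADHB, 0.042 in ETFA, 0.36 in BDH1 and -0.13 in ANGPTL4. With the median of probe sets it was -0.084 in ACADS, -0.068 in HADHA, 0.059 in ETFB, -0.17 in ACOX2 and -0.20 in ANGPTL4. With an array left out it ran from -0.088 to 0.14 in ACADM, -0.23 to 0.41 in ACOX2, -0.065 to 0.023 in ACSL4, -0.10 to 0.31 in ANGPTL4, -0.32 to 0.19 in BDH1, -0.028 to 0.18 in CROT, -0.16 to 0.086 in DECR1, -0.22 to 0.053 in ETFA, -0.073 to 0.11 in HADHA, -0.083 to 0.24 in HADHB, -0.22 to 0.023 in PPARGC1A and -0.28 to 0.037 in SLC25A20. The causes were not tested.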
